A study of Homo sapiens with 12 samples.

Results

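The proteasome genes described here are the subunits of the core particle and of its regulatory cap, the activators and the inhibitor of the core, and the factors that assemble both. They were taken as every gene of the platform whose single symbol starts with PSMA, PSMB, PSMC, PSMD, PSME, PSMF or PSMG, or is POMP. This gave 51 of the 19775 genes with 1 symbol, read by 99 probe sets. Of these 51 genes, 43 encode proteasome subunits, activators, an inhibitor or assembly factors. A further 6 are noncoding RNAs named after a subunit gene, and 2 share only the letters of the name: PSMC3IP, a meiotic recombination factor, and PSME3IP1, named as a partner of PSME3. Each gene was represented by its brightest probe set over the 12 arrays, and 48 of the 51 were bright enough to be tested among 14725 genes. The untested genes were PSMA8, a core subunit of the testis, and the noncoding PSMD14-DT and PSMD7-DT. PSMA6, PSMB11, PSMC5, PSMD7, PSMD13 and PSME2 were not analysed here.

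All arrays hold RNA of H929, a human myeloma line long kept in culture, myeloma being the cancer of antibody-secreting plasma cells. In the infected arm, cells carried a hairpin RNA against BCL9 (shBCL9) or one against green fluorescent protein (shGFP, the control), and cells positive for that protein were collected by flow sorting. In the transfected arm, cells received human miR-30, listed as members a to e with no word on whether they were given together, or, as their control, cel-miR-67, a microRNA of the worm. Each of these 4 groups has 3 arrays, and the series asks, by its title, about miR-30 as a tumour suppressor that targets BCL9, a coactivator of Wnt signalling. The labels name no vector, dose, time after delivery or clone.

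The core particle is a barrel of alpha and beta rings in which the beta subunits PSMB5, PSMB6 and PSMB7 cut proteins. The cap that sits on it has a base of ATPases, which unfold the substrate, and a lid, which removes its ubiquitin chain. Under interferon, cells exchange the cutting subunits for PSMB8, PSMB9 and PSMB10, forming the immunoproteasome, whose peptides feed antigen presentation. Plasma cells make large amounts of antibody and depend on protein degradation, and drugs that block PSMB5 are a mainstay of myeloma treatment.

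The deposited values are log2 intensities, on which a difference of 1 means a doubling, and array medians lay between 5.46 and 5.53. Levels of different genes are not compared, since they come from different probes. A gene was called when its adjusted p in limma, corrected over all 14725 genes, was under 0.05. BCL9 averaged 7.73 ± 0.12 in shBCL9 arrays and 7.88 ± 0.011 in shGFP arrays (SD, n = 3 each), a difference of -0.15 that was not called (adjusted p = 0.0874). Its shBCL9 arrays (7.61 to 7.85) lay wholly below its shGFP arrays (7.88 to 7.90), as they did for 27.2% of all genes tested. With array weights, or without shBCL9 replicate 3, BCL9 was called. It averaged 7.96 ± 0.11 in miR-30 arrays and 7.82 ± 0.036 in cel-miR-67 arrays (SD, n = 3 each), with a difference of 0.14 and an adjusted p of 0.269. All 11 plasma cell markers lay above the filter level. So did 5 of 6 B cell markers (not MS4A1), 4 of 7 of T and NK cells (not CD2, KLRD1 or NKG7), 2 of 4 myeloid ones (not CD14 or LYZ) and 6 of 8 stromal and epithelial ones (not COL1A2 or EPCAM). The summed level of the plasma cell markers was 16.1 to 16.2 in shBCL9 arrays and 16.2 to 16.3 in shGFP arrays, and 15.7 to 15.8 in miR-30 arrays and 15.8 in all cel-miR-67 arrays. For B cell markers it was 8.86 to 8.90 in shBCL9 arrays and 8.78 to 8.87 in shGFP arrays, and 9.19 to 9.41 in miR-30 arrays and 9.18 to 9.43 in cel-miR-67 arrays. For T and NK markers it was 9.77 to 9.92 in shBCL9 arrays and 9.63 to 9.69 in shGFP arrays, and 10.42 to 10.58 in miR-30 arrays and 10.38 to 10.49 in cel-miR-67 arrays. Within this list NCAM1 differed by 0.26 between shBCL9 and shGFP and by -1.04 between shGFP and cel-miR-67, whereas CD3E differed by -0.12 in the first and CD3D by 0.27 in the second. Myeloid markers summed to 7.17 to 7.26 in shBCL9 arrays and 7.01 to 7.25 in shGFP arrays, and to 7.03 to 7.25 in miR-30 arrays and 6.96 to 7.13 in cel-miR-67 arrays. Stromal and epithelial markers summed to 13.74 to 13.79 in shBCL9 arrays and 13.77 to 13.80 in shGFP arrays, and to 13.63 to 13.71 in miR-30 arrays and 13.55 to 13.61 in cel-miR-67 arrays. The plasma, B, T and NK, and stromal sums thus separated the arms without overlap, and their part in the results was not tested. The difference between the 3' and 5' probe sets of ACTB, a sign of how far RNA was copied or degraded, was 1.67 ± 0.081 in shBCL9 arrays, 1.30 ± 0.11 in shGFP arrays, 2.07 ± 0.011 in miR-30 arrays and 2.16 ± 0.085 in cel-miR-67 arrays (SD, n = 3 each). The 18S rRNA signal was 13.23 ± 0.021 in shBCL9 arrays and 12.38 ± 0.072 in shGFP arrays, and 12.64 ± 0.039 in miR-30 arrays and 12.50 ± 0.054 in cel-miR-67 arrays (SD, n = 3 each). Poly-A spike-ins lay at 5.96 to 6.91 in shBCL9 arrays and 6.96 to 7.30 in shGFP arrays, and at 7.29 to 7.48 in miR-30 arrays and 7.48 to 7.60 in cel-miR-67 arrays. Hybridisation spike-ins lay at 11.15 to 11.29 in shBCL9 arrays and 11.35 to 11.51 in shGFP arrays, and at 11.26 to 11.55 in miR-30 arrays and 11.37 to 11.40 in cel-miR-67 arrays. These 4 signs differed without overlap between shBCL9 and shGFP. The 3' minus 5' difference of GAPDH overlapped, at 0.11 to 0.14 in shBCL9 arrays and 0.11 to 0.15 in shGFP arrays. It was 0.18 to 0.25 in miR-30 arrays and 0.14 to 0.21 in cel-miR-67 arrays. The ACTB difference was tried as a covariate, and the part of the others in the results was not tested. In bulk RNA, fewer cells with a transcript and less of it per cell cannot be told apart. The labels do not tell whether replicate arrays stem from separate cultures, and p-values measure only their spread, possibly a technical one.

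In shBCL9 cells, the proteasome genes that rose included PSMD3 of the lid, the immunoproteasome subunits PSMB8 and PSMB10, and the catalytic subunit PSMB6, each by 0.29 to 0.49 on the log2 scale against shGFP cells. In all, 11 of the 48 genes tested rose, or 22.9%, where 18.7% of all genes tested were called higher and 41.5% either way. Only 3 fell, or 6.25%, where 22.9% of all genes were called lower, and 2 of these were noncoding RNAs. The remaining 34 were not called. The median difference of the 48 was 0.058 on the log2 scale, beside 0.027 over all genes tested. With the mean of each gene's probe sets it was -0.0086, below the 0.019 of all genes, and with arrays centred on their medians it was 0.028, beside -0.0033. The shBCL9 arrays lay wholly above the shGFP arrays for 21 of the 48 genes (43.8%, against 24.8% of all genes) and wholly below for 10 (20.8%, against 27.2%).

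**Figure D1:**
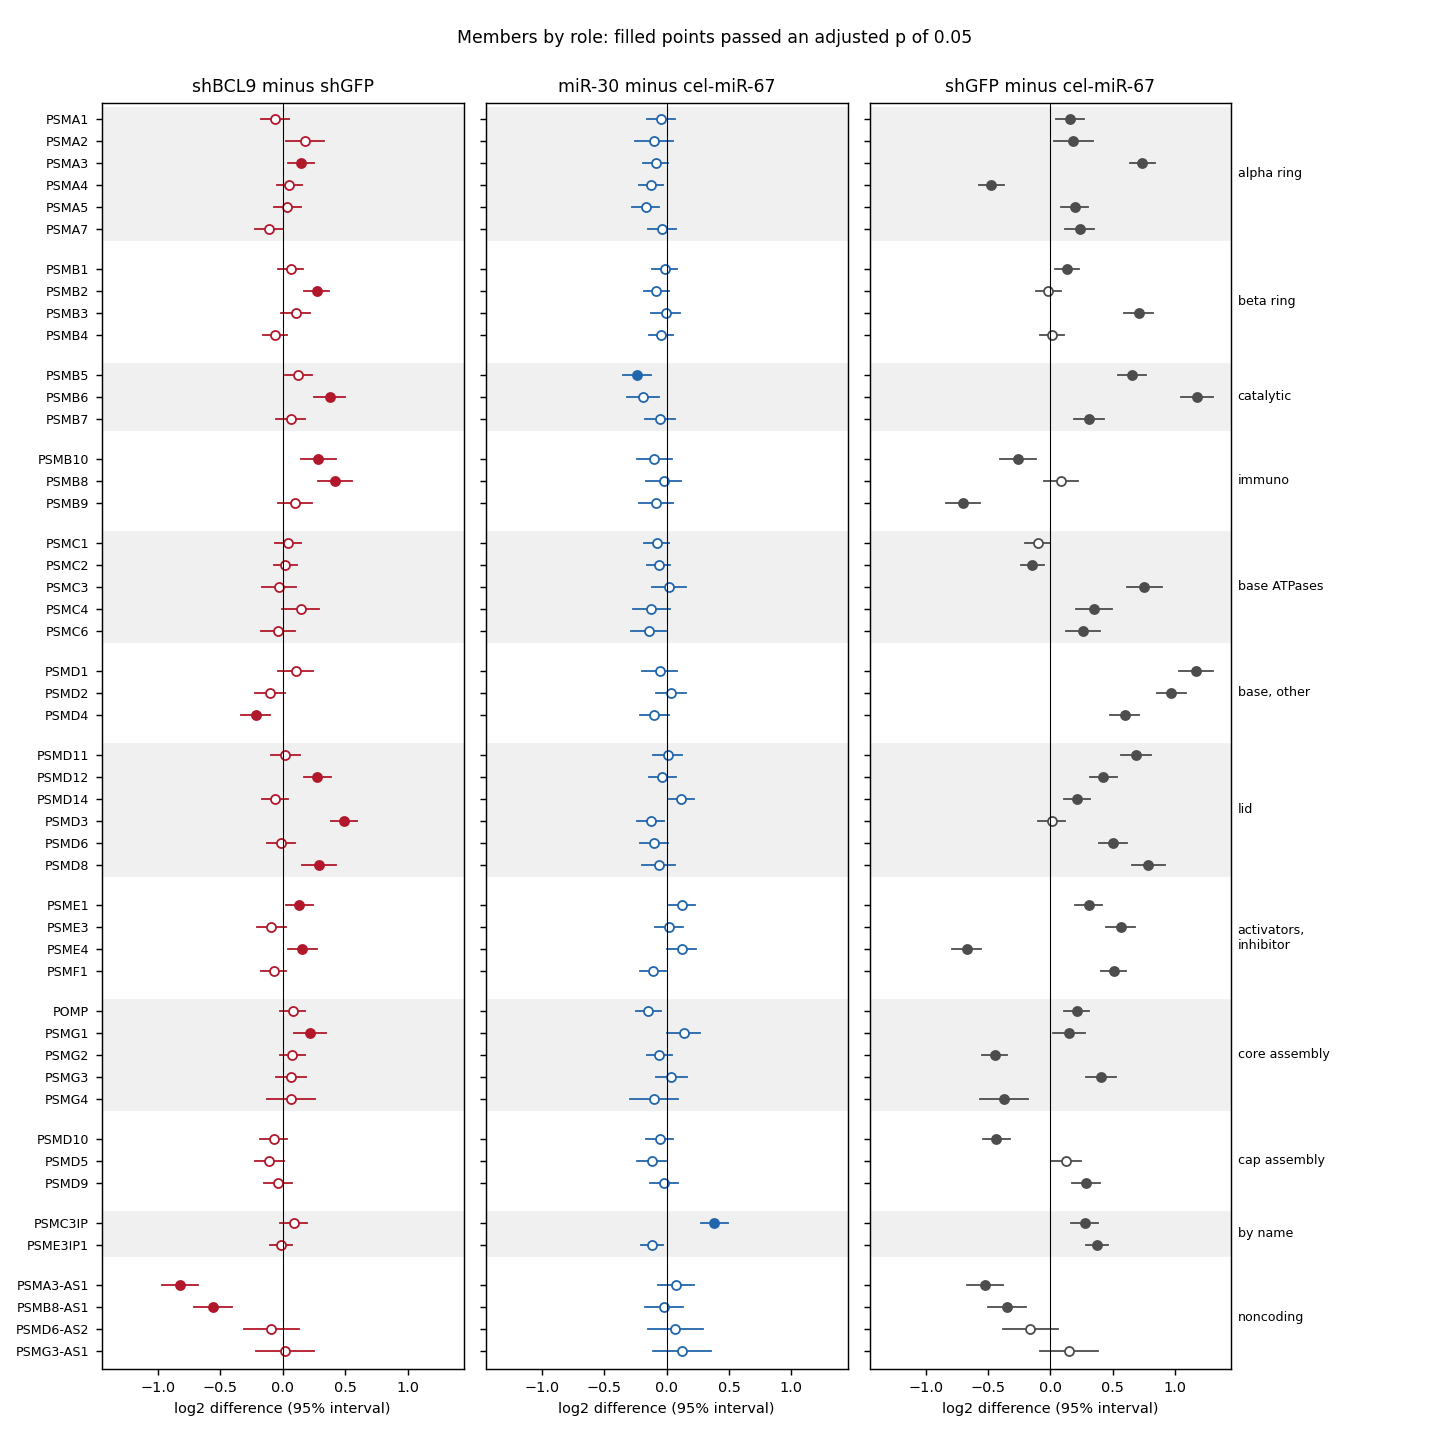
Log2 difference with its 95% interval (x axis) for the 48 genes tested (rows, grouped by role) in shBCL9 cells (minus shGFP, left), miR-30 cells (minus cel-miR-67, middle) and shGFP cells (minus cel-miR-67, right), with filled points for genes called at an adjusted p of 0.05. The left panel has 11 called genes to the right of 0 and 3 to the left, the middle panel has 1 on each side, and the right panel has 30 to the right and 10 to the left.

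Among the constitutive catalytic subunits, all 3 lay higher in shBCL9 cells and 1 was called. Of all 14725 genes tested, 8085 lay higher and 18.7% were called higher. PSMB6, which cuts after acidic residues, had log2 intensities of 11.80, 11.80 and 11.76 in shBCL9 arrays, against 11.49, 11.40 and 11.35 in shGFP arrays. The 3 shBCL9 arrays were within 0.038 of each other and all lay above the highest shGFP array. The rise was 0.38 (SE 0.058, adjusted p = 0.000229), which is 1.3-fold. PSMB5, the subunit that cuts after hydrophobic residues, had 10.58, 10.55 and 10.55 in shBCL9 arrays and 10.44, 10.44 and 10.43 in shGFP arrays. Its arrays also did not overlap, but the difference of 0.13 (SE 0.051, adjusted p = 0.0648) was not called. PSMB7, which cuts after basic residues, had 12.05, 12.03 and 11.99 in shBCL9 arrays and 11.97, 11.97 and 11.94 in shGFP arrays, a difference of 0.063 (SE 0.055, adjusted p = 0.377) that was not called.

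Of the immunoproteasome subunits, 2 of 3 rose in shBCL9 cells, where 18.7% of all genes tested did. PSMB8, which takes the place of PSMB5, had 10.33, 10.33 and 10.27 in shBCL9 arrays, against 9.90, 9.90 and 9.89 in shGFP arrays. The shGFP arrays agreed to within 0.01, and every shBCL9 array was at least 0.37 above them. The rise was 0.42 (SE 0.063, adjusted p = 0.000204), or 1.33-fold. PSMB10, which takes the place of PSMB7, had 11.088, 11.004 and 10.977 in shBCL9 arrays, against 10.775, 10.713 and 10.724 in shGFP arrays. These arrays did not overlap, and the rise was 0.29 (SE 0.065, adjusted p = 0.00373). PSMB9, which takes the place of PSMB6, had 10.05, 10.06 and 9.93 in shBCL9 arrays and 9.92, 9.85 and 9.97 in shGFP arrays. The groups overlapped, and its difference of 0.10 (SE 0.062, adjusted p = 0.222) was not called.

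**Figure D2:**
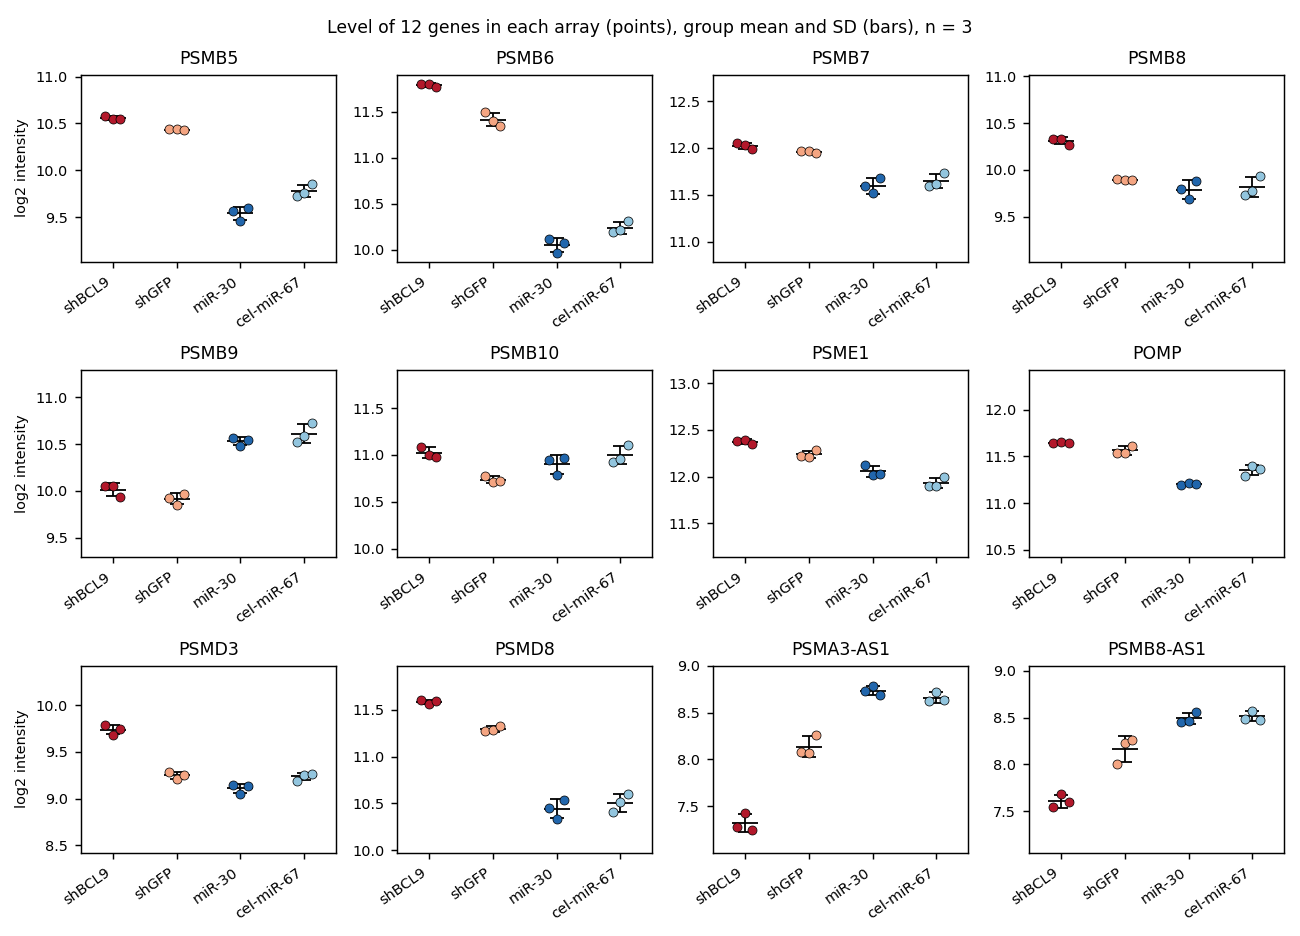
Log2 intensity (y axis, each panel spanning at least 2 log2 units) of 12 genes in each array (points) of the 4 groups (x axis), with the group mean and SD (n = 3). PSMD3, PSMB8 and PSMB10 sit higher in shBCL9 arrays than in shGFP arrays, PSMB5, PSMB6 and PSMD8 sit lower in both transfected groups than in both infected ones, and PSMB9 sits higher there.

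The start-site windows of these genes, from RefSeq on GRCh38.p14, are shown for PSMB8, PSMB10 and PSMD3, which rose in shBCL9 cells, for PSMB9, which was not called, and for PSMB5, which fell in miR-30 cells. Each runs from 250 bases before to 50 after an annotated start, on the strand of the gene. Capitals mark matches, on either strand, to GAAA, any 2 bases and GAAA (an interferon-stimulated response element), TGACNNNGC (the core of an antioxidant response element, the kind of site that NFE2L1 and NFE2L2 bind) or CTTTGA (a core of TCF sites, through which Wnt signalling acts). The matches shown do not overlap each other. Positions are of a match's leftmost base, counted from 0 at the start site. The PSMB8 window (chr6:32843998-32844297, minus strand) holds the first motif, reversed, from -4. The PSMB10 window (chr16:67936801-67937100, minus strand) holds the TCF core from -41 and the interferon motif from -21. The PSMD3 window (chr17:39980557-39980856, plus strand) holds the antioxidant core from -37 and, reversed, from 33.
PSMB8: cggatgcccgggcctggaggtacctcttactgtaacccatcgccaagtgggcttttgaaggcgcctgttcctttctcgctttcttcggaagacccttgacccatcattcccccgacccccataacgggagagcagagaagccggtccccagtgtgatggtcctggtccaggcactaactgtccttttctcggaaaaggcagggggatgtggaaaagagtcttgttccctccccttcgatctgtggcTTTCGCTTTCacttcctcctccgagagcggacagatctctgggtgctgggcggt
PSMB10: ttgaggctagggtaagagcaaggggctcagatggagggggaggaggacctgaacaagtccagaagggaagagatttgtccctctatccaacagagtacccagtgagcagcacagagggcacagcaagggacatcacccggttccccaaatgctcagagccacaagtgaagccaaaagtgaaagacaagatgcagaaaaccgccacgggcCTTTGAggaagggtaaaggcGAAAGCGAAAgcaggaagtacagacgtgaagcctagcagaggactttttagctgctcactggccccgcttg
PSMD3: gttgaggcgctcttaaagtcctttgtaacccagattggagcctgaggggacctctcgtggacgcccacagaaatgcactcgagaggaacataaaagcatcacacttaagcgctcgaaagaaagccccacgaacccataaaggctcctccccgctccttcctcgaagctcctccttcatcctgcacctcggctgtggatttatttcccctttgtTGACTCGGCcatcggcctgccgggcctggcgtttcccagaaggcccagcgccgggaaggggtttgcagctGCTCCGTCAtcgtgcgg
The PSMB9 window (chr6:32853942-32854241, plus strand) holds the antioxidant core, reversed, from -148. It shares 13 bases with the window of TAP1, a peptide transporter gene on the other strand. The PSMB5 window (chr14:23035171-23035470, minus strand) holds the TCF core, reversed, from -6.
PSMB9: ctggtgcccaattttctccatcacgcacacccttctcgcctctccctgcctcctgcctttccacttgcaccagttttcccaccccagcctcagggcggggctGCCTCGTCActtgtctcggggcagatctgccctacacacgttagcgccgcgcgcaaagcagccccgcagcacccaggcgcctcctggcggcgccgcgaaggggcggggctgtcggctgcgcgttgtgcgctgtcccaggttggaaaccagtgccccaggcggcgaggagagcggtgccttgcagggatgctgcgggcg
PSMB5: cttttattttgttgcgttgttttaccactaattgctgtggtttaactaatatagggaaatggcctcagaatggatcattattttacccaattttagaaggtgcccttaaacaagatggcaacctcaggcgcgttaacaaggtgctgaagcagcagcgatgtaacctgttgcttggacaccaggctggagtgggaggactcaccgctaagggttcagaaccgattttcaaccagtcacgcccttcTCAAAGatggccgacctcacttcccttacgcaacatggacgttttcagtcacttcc
PSMB8 and PSMB5 each have a second annotated window, in which these letters do not occur. Windows were found for 44 of the 51 genes. Those not matched were PSMA7, PSMB1, PSMB6, PSMB7, PSMD4, PSMG3 and PSMD14-DT. These 44 genes have 53 windows, and of those tested 10 rose in shBCL9 cells and 32 did not. The interferon motif occurs in 3.58% of all 35097 windows and in 7 of the 53 (13.2%), which belong to PSMA4, PSMB4, PSMB8, PSMB8-AS1, PSMB10, PSME1 and PSMG4. It was found for 3 of the 10 that rose (PSMB8, PSMB10 and PSME1) and 4 of the 32 that did not. The antioxidant core occurs in 13.3% of all windows and in 14 of the 53 (26.4%), for 5 of the 10 that rose (PSMD3, PSMD12, PSME1, PSME4 and PSMG1) and 9 of the 32 that did not. The TCF core occurs in 12.9% of all windows and in 6 of the 53 (11.3%), for 2 of the 10 that rose (PSMA3 and PSMB10) and 4 of the 32 that did not. A match is a stretch of letters and says nothing about binding.

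In the rest of the core, 2 of 10 subunits rose in shBCL9 cells, a share near the 18.7% of all genes tested that did. In the alpha ring, whose subunits gate the barrel, 1 of 6 rose, PSMA3 by 0.15 (SE 0.047, adjusted p = 0.0257). Its call was lost when any of 5 of the 6 arrays was left out in turn, with adjusted p-values of 0.0512 to 0.0749. The other alpha subunits differed by -0.11 (PSMA7) to 0.18 (PSMA2), and none was called. Among the noncatalytic beta subunits 1 of 4 rose, PSMB2, which had 12.14, 12.17 and 12.14 in shBCL9 arrays, against 11.91, 11.87 and 11.85 in shGFP arrays. These did not overlap, and the rise was 0.27 (SE 0.046, adjusted p = 0.000515). A dimmer PSMB2 probe set, however, was lower by 0.31 in shBCL9 arrays, without overlap, and the sign turned in the mean of its probe sets. PSMB1, PSMB3 and PSMB4 differed by 0.063, 0.11 and -0.061 and were not called.

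In the cap of shBCL9 cells, 3 of 6 lid subunits rose, and none of the 5 base ATPases was called. Of all genes tested, 18.7% were called higher and 41.5% either way. PSMD3, a scaffold subunit of the lid, had 9.79, 9.68 and 9.75 in shBCL9 arrays, against 9.28, 9.21 and 9.25 in shGFP arrays. The lowest shBCL9 array was 0.40 above the highest shGFP array, and the rise of 0.49 (SE 0.049, adjusted p = 6.49e-06), or 1.41-fold, was the largest among the 48 genes. PSMD8, a lid subunit added late in assembly, had 11.60, 11.56 and 11.59 in shBCL9 arrays, against 11.27, 11.28 and 11.33 in shGFP arrays, without overlap. It rose by 0.29 (SE 0.062, adjusted p = 0.00242). PSMD12, another lid scaffold, had 11.87, 11.94 and 11.80 in shBCL9 arrays, against 11.55, 11.60 and 11.63 in shGFP arrays, also without overlap, and rose by 0.28 (SE 0.050, adjusted p = 0.000727). PSMD6, PSMD11 and PSMD14, the last being the enzyme that cuts off ubiquitin chains, lay within -0.059 to 0.022. PSMD4, a ubiquitin receptor, was the only protein-coding gene among the 48 that fell. It had 12.27, 12.27 and 12.23 in shBCL9 arrays, against 12.53, 12.49 and 12.41 in shGFP arrays, without overlap, and fell by 0.22 (SE 0.052, adjusted p = 0.00515). The other large base subunits, PSMD1 and PSMD2, differed by 0.11 and -0.10, and the ATPases PSMC1, PSMC2, PSMC3, PSMC4 and PSMC6 by -0.039 (PSMC6) to 0.14 (PSMC4).

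Among the activators in shBCL9 cells, PSME1, part of the interferon-induced activator that opens the core, had 12.38, 12.40 and 12.34 in shBCL9 arrays, against 12.22, 12.22 and 12.28 in shGFP arrays. Its groups did not overlap, and the rise was 0.13 (SE 0.050, adjusted p = 0.0477). PSME4, an activator found in the nucleus, rose by 0.16 (SE 0.053, adjusted p = 0.0322), while one of its dimmer probe sets was 0.46 higher and another 0.45 lower in shBCL9 arrays. The calls of PSME1 and PSME4 were each lost without any of 5 of the 6 arrays in turn, with adjusted p-values of 0.0612 to 0.135 and 0.0562 to 0.125. The nuclear activator PSME3 and the inhibitor PSMF1 differed by -0.091 and -0.073 and were not called. Of the 5 factors that assemble the core, PSMG1, a chaperone of the alpha ring, rose by 0.22 (SE 0.059, adjusted p = 0.0105). POMP, which matures the beta ring, had 11.64, 11.65 and 11.64 in shBCL9 arrays and 11.54, 11.54 and 11.61 in shGFP arrays, a difference of 0.082 (SE 0.046, adjusted p = 0.172) that was not called. PSMG2, PSMG3 and PSMG4 differed by 0.076, 0.067 and 0.066. The chaperones of the cap base, PSMD5, PSMD9 and PSMD10, differed by -0.11, -0.038 and -0.073, and none was called.

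The largest falls in shBCL9 cells were in noncoding RNAs. PSMA3-AS1, named as antisense to PSMA3, had 7.28, 7.43 and 7.24 in shBCL9 arrays, against 8.08, 8.07 and 8.26 in shGFP arrays. It fell by 0.82 (SE 0.066, adjusted p = 1.03e-06), or 1.77-fold lower, and its dimmer probe sets were lower by 0.31 and 0.086. PSMB8-AS1, named as antisense to PSMB8, had 7.54, 7.68 and 7.60 in shBCL9 arrays, against 7.99995, 8.23285 and 8.26051 in shGFP arrays, without overlap. It fell by 0.56 (SE 0.070, adjusted p = 4.59e-05). In both pairs the RNA named as antisense fell where the subunit gene rose, without overlap between the groups. The call of PSMA3 was lost in 9 of 17 alternatives, and its dimmer probe sets differed by 0.039 and -0.015, with overlap. Between shGFP and cel-miR-67, PSMB8-AS1 differed by -0.35 and PSMB8 by 0.082, the latter not called. There PSMA3-AS1 differed by -0.52 and PSMA3 by 0.74. A link within the pairs was not tested. In shBCL9 cells, PSMD6-AS2 and PSMG3-AS1 differed by -0.090 and 0.018 and were not called, as were PSMC3IP (0.089) and PSME3IP1 (-0.015).

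Of 24 genes tested that work with the proteasome, 4 rose (16.7%, where 18.7% of all genes did) and 6 fell (25.0%, where 22.9% did), shares near those of all genes. UBQLN2, a shuttle for ubiquitinated proteins, rose by 0.37 (adjusted p = 0.000615), and ADRM1, a ubiquitin receptor of the cap, by 0.23 (adjusted p = 0.016). ECPAS, which binds the assembled particle, fell by 0.27 (adjusted p = 0.00126), PAAF1, which binds cap ATPases, by 0.20 (adjusted p = 0.0105), and NFE2L2, a factor of the stress response, by 0.19 (adjusted p = 0.0355). NFE2L1, which raises proteasome genes when proteasomes are blocked, differed by -0.14 (adjusted p = 0.0912). UCHL5, a cap-bound deubiquitinase, and SEM1, the smallest lid subunit, differed by 0.11 and 0.026, with adjusted p-values of 0.103 and 0.743. Of 22 interferon-stimulated genes tested, 12 rose (54.5%) and 4 fell (18.2%) in shBCL9 cells. IFI27 rose by 2.60 (adjusted p = 4.71e-11) and MX1, an antiviral GTPase, by 1.79 (adjusted p = 1.03e-10), while SAMD9 fell by 1.64 (adjusted p = 8.73e-09). Of 14 antigen processing genes tested, 2 rose (14.3%), among them IRF1, a transcription factor induced by interferon, by 0.45 (adjusted p = 7.74e-06), and 6 fell (42.9%), among them NLRC5, an activator of HLA class I genes, by 0.68 (adjusted p = 1.62e-05) and HLA-E by 0.31 (adjusted p = 0.000106). The part of these genes in the proteasome results was not tested. The peptide transporters TAP1 and TAP2 differed by -0.14 and 0.019 and were not called (adjusted p = 0.119 and 0.813).

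PSMD3, PSMB6, PSMB8, PSMB10, PSMA3-AS1 and PSMB8-AS1 kept their call and direction under each of the 17 alternatives at the threshold of 0.05 (16 for PSMB8). The adjusted p of PSMB10 went up to 0.046 among them. PSMD3, PSMB6, PSMB8 and PSMB10 have 1 probe set each, so averaging over probe sets could not change their values. For PSMD3, PSMB6 and PSMB10, the same holds for using only unmarked probe sets. With the ACTB difference as a covariate, 5 rose (PSMD3, PSMB8, PSMB6, PSMB10 and PSMB2) and 2 fell, while the median standard error went up to 0.121, against 0.0529 without it. Of all 14725 genes, 1075 rose and 1892 fell with that covariate, against 2749 and 3369 without it. With only probe sets that carry no shared or cross-hybridising mark, 7 of the 34 genes left rose and 4 fell, where 1918 of all 11590 genes left rose and 2725 fell.

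In miR-30 cells few proteasome genes were called against cel-miR-67 cells. PSMC3IP, which is no subunit, rose, and PSMB5, the catalytic subunit that myeloma drugs block, fell. That is 1 higher and 1 lower of 48, or 2.08% each way, where 2.34% of all genes tested were called higher, 2.63% lower and 4.98% either way. The median difference of the 48 genes was -0.056, beside -0.017 over all genes tested, and 35 of the 48 lay below 0, as did 8169 of all 14725 genes. It was -0.029 without cel-miR-67 replicate 3 and -0.034 without miR-30 replicate 2. Under quantile normalization 452 of all genes were called higher and 322 lower, against 345 and 388 as deposited. By brightest probe set, all 16 core subunits tested had a negative difference, between -0.24 for PSMB5 and -0.0056 for PSMB3, and only PSMB5 was called. Dimmer probe sets of PSMA3 differed by 0.057 and 0.10, and those of PSMB2 by 0.077, 0.038 and -0.076, all with overlap. Dimmer probe sets of the other core subunits were negative. The miR-30 arrays lay wholly below the cel-miR-67 arrays for 15 genes (31.2%, against 16.1% of all genes) and wholly above for 5 (10.4%, against 10% of all genes).

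PSMB5 had 9.56, 9.46 and 9.60 in miR-30 arrays, against 9.73, 9.76 and 9.85 in cel-miR-67 arrays. The highest miR-30 array was 0.13 below the lowest cel-miR-67 array. It fell by 0.24 (SE 0.051, adjusted p = 0.0199), or 1.18-fold lower. The call was lost without miR-30 replicate 2 (adjusted p = 0.0858), without cel-miR-67 replicate 2 (0.0623) or without cel-miR-67 replicate 3 (0.0796), with the difference at -0.20 to -0.25. PSMB6 had 10.11, 9.96 and 10.07 in miR-30 arrays and 10.19, 10.21 and 10.31 in cel-miR-67 arrays, without overlap. Its difference of -0.19 (SE 0.058, adjusted p = 0.0819) was not called. PSMB7 had 11.59, 11.52 and 11.68 in miR-30 arrays and 11.59, 11.62 and 11.73 in cel-miR-67 arrays, which overlapped, with a difference of -0.055.

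No immunoproteasome subunit was called in miR-30 cells. PSMB8 had 9.80, 9.69 and 9.88 in miR-30 arrays and 9.73, 9.78 and 9.93 in cel-miR-67 arrays. PSMB9 had 10.56, 10.48 and 10.54 in miR-30 arrays and 10.52, 10.58 and 10.73 in cel-miR-67 arrays. PSMB10 had 10.95, 10.78 and 10.96 in miR-30 arrays and 10.92, 10.96 and 11.11 in cel-miR-67 arrays. In each of the 3, neither group lay wholly apart. Their differences of -0.024, -0.084 and -0.10 were not called, with 95% intervals of -0.16 to 0.11 for PSMB8, -0.22 to 0.052 for PSMB9 and -0.24 to 0.042 for PSMB10.

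PSMC3IP had 8.58, 8.55 and 8.47 in miR-30 arrays, against 8.16, 8.09 and 8.21 in cel-miR-67 arrays. Every miR-30 array was at least 0.26 above the highest cel-miR-67 array, and the rise was 0.38 (SE 0.050, adjusted p = 0.00133). Its second probe set was 0.42 higher, also without overlap. POMP had 11.19, 11.22 and 11.21 in miR-30 arrays and 11.29, 11.40 and 11.37 in cel-miR-67 arrays. These did not overlap, and the difference of -0.15 (SE 0.046, adjusted p = 0.0893) was not called. PSME1 had 12.12, 12.02 and 12.03 in miR-30 arrays and 11.90, 11.90 and 11.99 in cel-miR-67 arrays, without overlap, a difference of 0.12 (SE 0.050, adjusted p = 0.175) that was not called.

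None of the other proteasome genes was called in miR-30 cells. Alpha subunits differed by -0.17 (PSMA5) to -0.037 (PSMA7), base ATPases by -0.14 (PSMC6) to 0.019 (PSMC3) and lid subunits by -0.13 (PSMD3) to 0.12 (PSMD14). The noncoding RNAs that fell in shBCL9 cells differed by 0.073 (PSMA3-AS1) and -0.020 (PSMB8-AS1) in miR-30 cells. None of the 24 genes that work with the proteasome was called, with ADRM1, UCHL5 and SEM1 at -0.14, -0.0066 and -0.10 and NFE2L1 and NFE2L2 at -0.071 and -0.052. None of the 14 antigen processing genes was called, with TAP1 at -0.22 (adjusted p = 0.088) and TAP2 at 0.092 (adjusted p = 0.393). Of the 22 interferon-stimulated genes, 7 fell (31.8%, where 2.63% of all genes did), among them IFIT1 by 0.66 (adjusted p = 0.00162), and none rose.

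The effects of both treatments were then set against each other in the fit, as the miR-30 effect minus the shBCL9 effect. For 14 of the 48 genes this difference was called, against 26.3% of all genes tested. It was negative for 11 (22.9%, against 11.7% of all genes) and positive for 3 (6.25%, against 14.6%). The median was -0.085, beside -0.032 over all genes tested, but with the mean of each gene's probe sets it was -0.019, no longer below the -0.023 of all genes. The 11 were PSMD3, PSMB6, PSMB8, PSMB10, PSMB5, PSMB2, PSMD8, PSMD12, PSMA3, POMP and PSMA5, and 7 of them belong to the core, which had 16 genes tested. The largest was PSMD3, at -0.13 in miR-30 cells and 0.49 in shBCL9 cells, a difference of -0.62 (SE 0.070, adjusted p = 4.02e-05). PSMB6 was at -0.19 in miR-30 cells and 0.38 in shBCL9 cells, a difference of -0.57 (SE 0.082, adjusted p = 0.000289). PSMB8 was at -0.024 in miR-30 cells and 0.42 in shBCL9 cells, a difference of -0.44 (SE 0.089, adjusted p = 0.00307).

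PSMB5 and POMP were called in neither direction by the hairpin, but their effects differed between the arms. PSMB5 differed by -0.36 (SE 0.072, adjusted p = 0.00263) and POMP by -0.23 (SE 0.065, adjusted p = 0.0217). PSMB10 differed by -0.38 (SE 0.092, adjusted p = 0.00844) and PSMB2 by -0.35 (SE 0.066, adjusted p = 0.00168). The difference of effects was positive for PSMA3-AS1 at 0.89 (SE 0.094, adjusted p = 2.33e-05), PSMB8-AS1 at 0.54 (SE 0.10, adjusted p = 0.00171) and PSMC3IP at 0.30 (SE 0.071, adjusted p = 0.00859). PSMA3-AS1 was at 0.073 in miR-30 cells and -0.82 in shBCL9 cells, and PSMB8-AS1 at -0.020 and -0.56. PSMC3IP was at 0.38 in miR-30 cells and 0.089 in shBCL9 cells. The difference was not called for PSMB9 (-0.18, adjusted p = 0.148), PSMB7 (-0.12, adjusted p = 0.292) or PSME1 (-0.0094, adjusted p = 0.937), the last lying higher than its control by 0.12 in miR-30 cells and 0.13 in shBCL9 cells. The call of PSMA5 was lost without any of 10 of the 12 arrays in turn and with the replicate number as a block, and those of POMP and PSMA3 without any of 2. POMP and PSMA3 also lost theirs with the mean of probe sets and with the ACTB covariate. POMP and PSMA5 further lost theirs with arrays centred on their medians and with only probe sets that carry no shared mark. With the ACTB covariate, PSMD3, PSMB6 and PSMB2 were still called lower, together with PSMC4, and PSMA3-AS1 and PSMB8-AS1 were still called higher. Of all 14725 genes, 550 were then called lower and 1167 higher, against 1727 and 2145 without it.

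**Figure D3:**
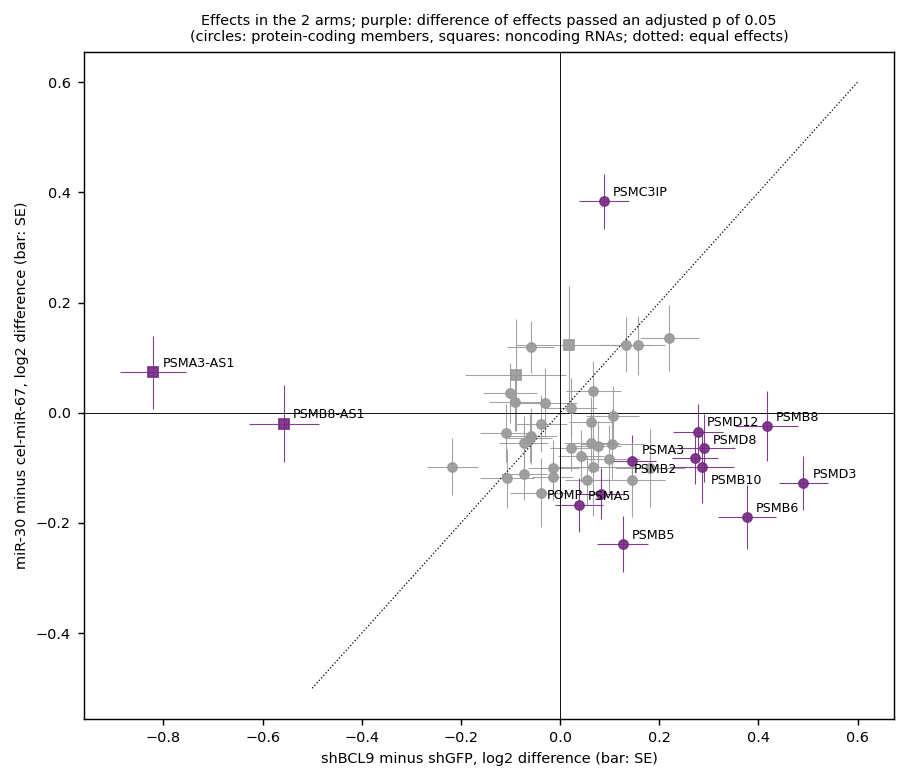
Log2 difference of miR-30 minus cel-miR-67 (y axis) against shBCL9 minus shGFP (x axis) for the 48 genes tested, with bars for the SE, the dotted line for equal effects and purple points for genes whose difference of effects was called. Of the purple points, 11 lie below the dotted line, with PSMD3 farthest, and 3 above it, with PSMA3-AS1 farthest.

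The controls of the arms were compared last. In infected and sorted shGFP cells, most proteasome genes lay higher than in transfected cel-miR-67 cells: 30 of 48 were called higher (62.5%, where 28.4% of all genes were) and 10 lower (20.8%, where 33% were), against 61.4% of all genes either way. The shGFP arrays lay wholly above the cel-miR-67 arrays for 30 genes (62.5%, against 31.3% of all genes) and wholly below for 11 (22.9%, against 34.8%). The median difference was 0.21, beside 0.024 over all genes tested. Infection with sorting, transfection and any difference in when the arms were handled cannot be told apart in these controls. This comparison also shares its arrays with those above. With the ACTB covariate, which differs by 0.86 between these groups, only PSMD1 and PSMD2 were called, the median standard error was 0.254, against 0.0529 without it, and the median difference was 0.267. Of all 14725 genes, 1658 were called with that covariate (943 higher and 715 lower), against 9044 without it.

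All 3 constitutive catalytic subunits were higher in shGFP cells, from the arrays given above: PSMB6 by 1.17 (SE 0.058, adjusted p = 1.66e-09), PSMB5 by 0.65 (SE 0.051, adjusted p = 1.23e-07) and PSMB7 by 0.31 (SE 0.055, adjusted p = 0.000254). For PSMB6 the lowest shGFP array was 1.03 above the highest cel-miR-67 array. Of the immunoproteasome subunits, PSMB9 was lower in shGFP cells by 0.70 (SE 0.062, adjusted p = 4.67e-07) and PSMB10 by 0.26 (SE 0.065, adjusted p = 0.00341), while PSMB8 differed by 0.082 and was not called. Levels of PSMB9 were thus ordered with both transfected groups above both infected ones, with no overlap between the arms, while the groups within each arm overlapped.

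The cap carried the largest rises in shGFP cells after PSMB6. PSMD1, the largest base subunit, had 10.75, 10.73 and 10.63 in shGFP arrays, against 9.52, 9.50 and 9.60 in cel-miR-67 arrays, and was higher by 1.17 (SE 0.064, adjusted p = 4.47e-09). PSMD2, its partner in the base, had 10.65, 10.61 and 10.67 in shGFP arrays, against 9.66, 9.69 and 9.67 in cel-miR-67 arrays, and was higher by 0.97 (SE 0.054, adjusted p = 4.82e-09). PSMC3, an ATPase, had 9.97, 9.95 and 9.83 in shGFP arrays, against 9.09, 9.18 and 9.23 in cel-miR-67 arrays, and was higher by 0.75 (SE 0.063, adjusted p = 2.53e-07). In none of these did the groups overlap. The lid subunit PSMD8, with the arrays given for the infected groups and 10.41, 10.52 and 10.60 in cel-miR-67 arrays, was higher by 0.79 (SE 0.062, adjusted p = 1.37e-07). The remaining lid subunits rose by 0.22 (PSMD14) to 0.68 (PSMD11), except PSMD3, with 9.19, 9.26 and 9.27 in cel-miR-67 arrays and a difference of 0.0088. In the alpha ring, PSMA3 had 12.06, 12.06 and 12.07 in shGFP arrays, against 11.33, 11.28 and 11.37 in cel-miR-67 arrays, and was higher by 0.74 (SE 0.047, adjusted p = 1.85e-08).

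A smaller group lay lower in shGFP cells. PSME4 had 8.92, 8.98 and 8.96 in shGFP arrays, against 9.62, 9.60 and 9.65 in cel-miR-67 arrays, and was lower by 0.67 (SE 0.053, adjusted p = 1.51e-07). PSMA4, an alpha subunit, had 11.90, 11.97 and 11.95 in shGFP arrays, against 12.41, 12.42 and 12.40 in cel-miR-67 arrays, and was lower by 0.47 (SE 0.045, adjusted p = 8.04e-07), the reverse of the other 5 alpha subunits, which were all called higher. The groups did not overlap in either gene. PSMG2, the partner of PSMG1 in alpha ring assembly, had 11.46, 11.52 and 11.53 in shGFP arrays, against 11.90, 11.98 and 11.98 in cel-miR-67 arrays, and was lower by 0.45 (SE 0.046, adjusted p = 1.8e-06). PSMD10, a chaperone of the cap base, had 10.49, 10.53 and 10.53 in shGFP arrays, against 10.91, 10.91 and 11.04 in cel-miR-67 arrays, and was lower by 0.43 (SE 0.049, adjusted p = 4.8e-06). Neither of these overlapped. PSMA3-AS1 had 8.62, 8.72 and 8.63 in cel-miR-67 arrays, all above the shGFP arrays, and was lower in shGFP cells by 0.52 (SE 0.066, adjusted p = 1.35e-05). PSMB8-AS1 had 8.49, 8.57 and 8.48 there and was lower in shGFP cells by 0.35 (SE 0.070, adjusted p = 0.000726). POMP was higher in shGFP cells by 0.21 and PSME1 by 0.31, and both were called. A dimmer POMP probe set differed by 0.023, with overlap, and the call of POMP was lost with the mean of its probe sets. Leaving out 1 array ended the call of PSMA1 for 2 of the 6 arrays, of PSMA2 for 5, of PSMB1 for 3 and of PSMG1 for 4.

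Around the proteasome, 10 of the 24 linked genes were called higher in shGFP cells (41.7%, where 28.4% of all genes were) and 12 lower (50%, where 33% were). UCHL5 was higher by 1.22 (adjusted p = 3.07e-10), and ADRM1 by 0.74 (adjusted p = 6.01e-07). NFE2L1 averaged 9.31 ± 0.071 in shGFP arrays and 11.26 ± 0.022 in cel-miR-67 arrays (SD, n = 3 each) and was lower by 1.95 (adjusted p = 4.72e-11), and NFE2L2 was lower by 0.75 (adjusted p = 4.36e-07). SEM1 differed by -0.045 (adjusted p = 0.525). Of the 14 antigen processing genes 12 were lower in shGFP cells (85.7%), among them TAP1 by 0.74 (adjusted p = 5.92e-07), while TAP2 differed by -0.085 (adjusted p = 0.215). Of the 22 interferon-stimulated genes 15 were lower (68.2%), among them IFITM1 with a difference of -3.70 (adjusted p = 3.5e-13), and none was called higher. The part of these genes in the difference between the controls was not tested.

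Several proteasome genes have further probe sets, and these did not always move alike. Of the 51 genes, 28 have more than 1 probe set, and 25 of the genes tested have more than 1 above the filter level in at least 3 arrays. Of the 14 genes called between shBCL9 and shGFP, 6 have such further probe sets, and a sign differed in 4 of them: PSMA3, PSMB2, PSMD4 and PSME4. PSMD4 has 4 probe sets, of which the brightest 3 were lower in shBCL9 arrays by 0.22 to 0.25 and the dimmest was higher by 0.13, with overlap. Some genes that were not called had a dimmer probe set that lay well below its control in shBCL9 arrays without overlap. For PSMA5 this was by 1.08, for PSMC2 by 0.58 and 0.70 in separate probe sets, and for PSMD11 by 0.59, whereas their brightest probe sets differed by 0.038, 0.021 and 0.022. PSMD9, also not called, went the other way. Its dimmer probe set was higher by 0.59 without overlap, and its brightest differed by -0.038. PSMD3, PSMD8, PSMB6, PSMB8 and PSMB10 have 1 probe set each, so no second measurement bears on them. For the 40 genes called between shGFP and cel-miR-67, 22 have further probe sets, and a sign differed in PSMA3, PSMC2, PSMD9 and PSMG4.

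**Figure D4:**
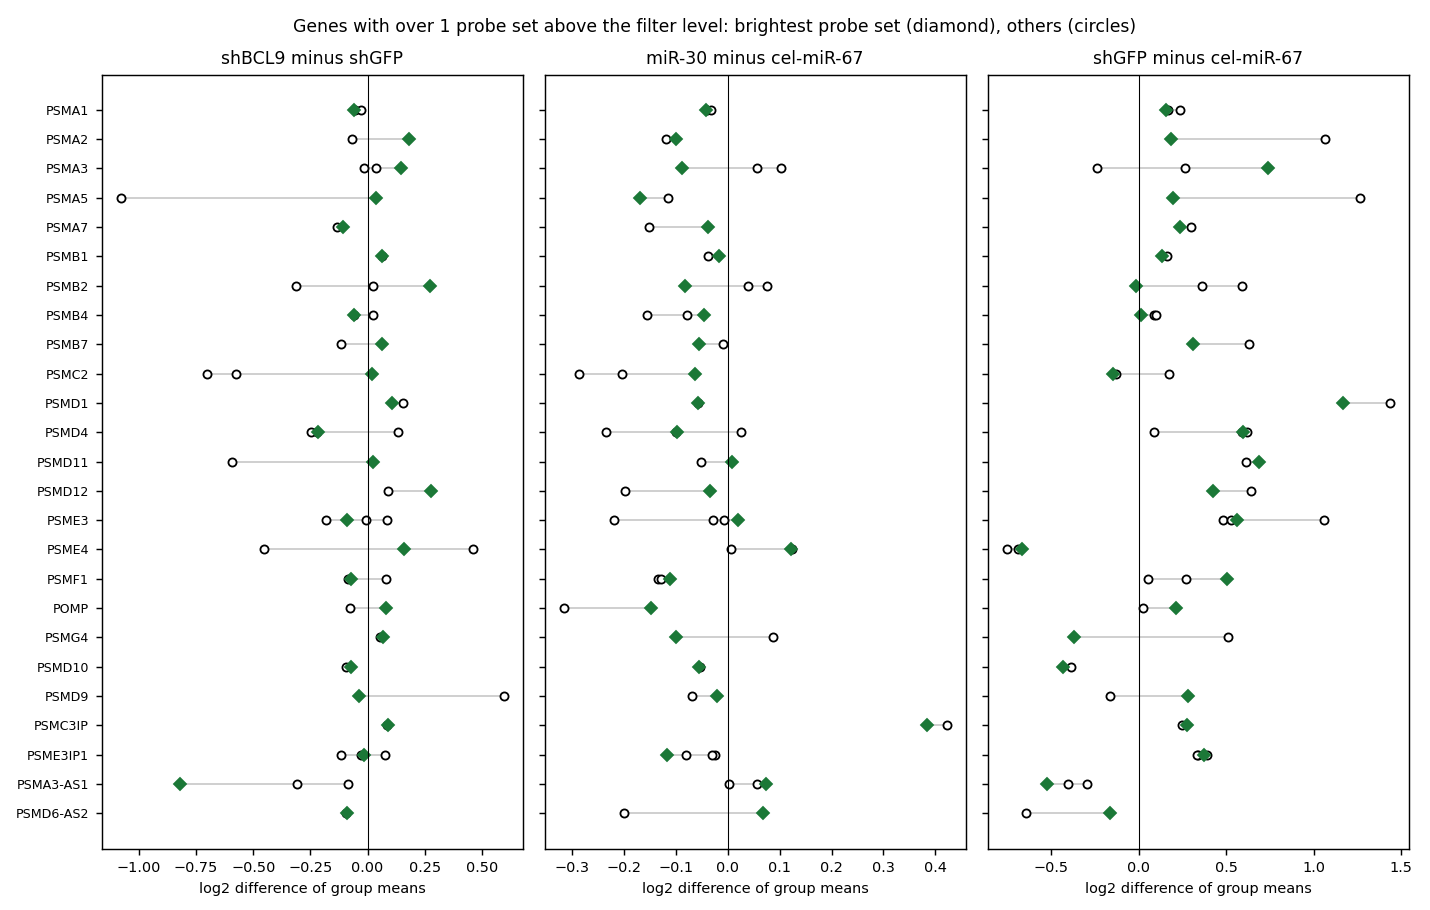
Log2 difference of group means (x axis, scaled per panel) for the 25 genes with more than 1 probe set above the filter level (rows), with the brightest probe set as a diamond and the others as circles, joined by a line. PSMA5, PSMC2 and PSMD11 have a circle at -1.08 to -0.58 in the shBCL9 panel with a diamond near 0, while the probe sets of PSMC3IP lie together in each panel.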

How the data were processed

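Arrays of 54675 probe sets were read as a single deposited table. Its deposited values are log2 intensities, which the authors made with RMA and affy (versions not stated), as the submitters' processing notes say, and RNA was extracted with Trizol and labelled with biotin by a 3' transcription kit, per the labels' protocols. No further normalization was applied. Precision is set by the number of arrays, which carry no read depth.

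The platform annotation gave 1 symbol to 41097 probe sets. Of the probe sets of these gene families, 5 with several symbols were left out. All 51 symbols were found in the RefSeq table of GRCh38.p14. A gene was tested when its brightest probe set by mean exceeded, in at least 3 arrays, the 40th percentile of all probe sets there. The 12 arrays entered 1 linear model with a mean for each group (lmFit and eBayes of limma 3.58.1, R 4.3.3), with Benjamini-Hochberg adjustment over 14725 genes, and all adjusted p-values are limma's. Quality probe sets and BCL9 also had two-sided exact permutation tests over 3 against 3 arrays, which cannot give a p below 0.1 and are not quoted. The fit was tested on simulated data. Tables were made with Python 3.11.15, pandas 2.3.3 and scipy 1.17.1, and figures with matplotlib 3.10.9.

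Values in every array are given for the catalytic and immunoproteasome subunits, PSME1, POMP and the called genes with the 6 largest rises and falls of a comparison; the lists of linked genes are given by counts, with up to 4 called members, and NFE2L1, NFE2L2, TAP1, TAP2, ADRM1, SEM1 and UCHL5 throughout. The genes and lists were chosen with earlier results of these data known. Alternatives were no filter or the 60th percentile, averaging over probe sets, using only probe sets without a mark for shared transcripts, quantile normalization, median centring, separate fits per comparison, array weights, a trended robust variance, a replicate block, a threshold of 0.01, an ACTB covariate, and leaving out each array.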

Additional observations from a re-analysis of the deposited data

Results flagged for a closer look

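The effects of miR-30 and shBCL9, each against its own control, were compared by limma's test of the difference (adjusted p under 0.05). They differed for 14 of the 48 proteasome genes tested, where they did for 26.3% of all genes, and for BCL9. Values are the miR-30 effect minus the shBCL9 effect on the log2 scale. In the cap, the difference was -0.62 for PSMD3, -0.35 for PSMD8 and -0.31 for PSMD12. Among catalytic and immunoproteasome subunits it was -0.57 for PSMB6, -0.44 for PSMB8, -0.38 for PSMB10 and -0.36 for PSMB5. In the rest of the core it was -0.35 for PSMB2, -0.23 for PSMA3 and -0.21 for PSMA5, and for the assembly factor POMP it was -0.23. The effects lay the other way for PSMA3-AS1 at 0.89, PSMB8-AS1 at 0.54 and PSMC3IP at 0.30. BCL9 itself, called in neither arm, had a difference of 0.29 (adjusted p = 0.0404), and this call was lost without any of 10 of the 12 arrays in turn and with the replicate number as a block, as was that of PSMA5.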

How the results depend on the processing

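Counts are of the 48 proteasome genes unless another number is given, and counts over all genes are of 14725 unless another number is given. For shBCL9 against shGFP, 11 higher became 7 of 34 with unmarked probe sets, 7 at a threshold of 0.01 and 5 with the ACTB covariate, and 3 lower became 6 with the mean of probe sets. Over all genes, 2749 higher became 1918 of 11590, 1544 and 1075 in that order, and 3369 lower became 3218 of 13538. Leaving out each array gave 8 to 10 proteasome genes higher and 3 to 4 lower. For miR-30 against cel-miR-67, 1 higher became 0 with unmarked probe sets and 2 with a trended robust variance. Over all genes, 345 higher became 226 of 11590 and 539. In the same comparison, 1 lower became 3 with the 60th percentile filter, 2 with the mean of probe sets, 0 with only the arrays of the comparison, 3 with array weights, 5 with a trended robust variance and 0 at a threshold of 0.01. Over all genes, 388 lower became 668 of 11316, 365 of 13538, 213, 778, 880 and 77 in that order. Leaving out each array gave 1 proteasome gene higher and 0 to 1 lower. For the difference of effects, 3 higher became 5 with the mean of probe sets, and 11 lower became 6 with unmarked probe sets, 7 at a threshold of 0.01 and 4 with the ACTB covariate. Over all genes, 2145 higher became 2094 of 13538, and 1727 lower became 1135 of 11590, 829 and 550 in that order. Leaving out each array gave 3 proteasome genes higher and 9 to 14 lower. For shGFP against cel-miR-67, 30 higher became 19 of 34 with unmarked probe sets and 2 with the ACTB covariate, and 10 lower became 0 with that covariate. Over all genes, 4181 higher became 3164 of 11590 and 943 in that order, and 4863 lower became 715. Leaving out each array gave 26 to 30 proteasome genes higher and 10 lower.

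Some genes changed sign with other probe sets, and the cause was not tested. In shBCL9 against shGFP the mean of probe sets gave -0.52 for PSMA5, -0.078 for PSMB2, -0.42 for PSMC2, -0.28 for PSMD11 and 0.28 for PSMD9, and unmarked probe sets gave -0.58 for PSMC2, -0.59 for PSMD11 and 0.13 for PSMD4. In the difference of effects the mean gave 0.38 for PSMA5, 0.067 for PSMB2, 0.24 for PSMC2 and -0.32 for PSMD9, and unmarked probe sets gave 0.016 for PSMB2, 0.37 for PSMC2 and 0.54 for PSMD11. In shGFP against cel-miR-67 the mean gave 0.25 for PSMB2 and 0.13 for PSMG4, unmarked probe sets gave 0.36 for PSMB2, 0.17 for PSMC2 and 0.51 for PSMG4, and the ACTB covariate gave 0.34 for PSMB8-AS1 and -0.23 for PSMC4.

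With the replicate number as a block, the counts were 11 higher and 3 lower for shBCL9, 1 and 1 for miR-30, 3 and 11 for the difference of effects, and 30 and 10 for the controls, the same as without the block, although PSME1 lost its call and PSMA2 gained one for shBCL9, and PSMA5 and BCL9 lost theirs and PSMA2 gained one for the difference of effects. Same-numbered arrays deviated together at r = 0.050 to 0.10 (shBCL9 with shGFP), 0.091 to 0.23 (miR-30 with cel-miR-67) and -0.22 to 0.035 (shGFP with cel-miR-67). Arrays with different numbers did so at -0.15 to 0.065, -0.24 to 0.13 and -0.27 to 0.25, in the same order. Whether same-numbered arrays share a culture or a day of handling cannot be told from these values. Signal over background limits dim genes, and 3 of the 51 were too dim to test.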
